A study of Mus musculus with 28 samples.

Results

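Quadriceps, a large thigh muscle, was compared between female C57BL/6J mice of 24 months and of 6 months. The comparison used 6 of the 28 arrays in the series, chosen by their tissue and age labels: 3 arrays of quadriceps at 24 months (103 weeks) and 3 arrays of quadriceps at 6 months (24 weeks). C57BL/6J is an inbred strain, and all mice of both ages were female, were kept in groups on chow and had gone overnight without food before they were killed. Total RNA was amplified with a whole-transcript kit and hybridised to Affymetrix arrays. Liver at the same ages (3 arrays each) lies in the same table, while gastrocnemius, a calf muscle (4 arrays per age), was run on another array type. Whether each array holds its own animal, and whether one mouse gave several tissues, the labels leave unsaid; the p-values therefore describe only the spread among these arrays, which may be technical. The values are deposited log2 expression, on which a difference of 1 is a 2-fold difference, and every difference below is 24 months minus 6 months.

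The quadriceps of the mouse is built mostly of fast-contracting fibres, which run on glycolysis and carry the myosin heavy chain of Myh4, with a small deep region of slow, oxidative fibres. Aged muscle is known for loss of fibres, weaker coupling of the nerve signal to calcium release, and a reduced response to insulin and growth factors. Lysine methyltransferases of the Mettl21 family, to which Mettl21c belongs, add methyl groups to chaperones and other non-histone proteins, and several members are transcribed mainly in skeletal muscle.

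The arrays carried the transcripts of fast skeletal muscle. Myh4 lay at 13.81, 13.77 and 13.81 in the 24-month arrays and at 13.83, 13.79 and 13.70 in the 6-month arrays. Ckm, the muscle creatine kinase, lay at 14.10 to 14.16 at 24 months and at 14.09 to 14.18 at 6 months, and Acta1, the skeletal actin, averaged 14.23 at both ages. Actn3, Pygm and Tnnt3, an actin cross-linker, the muscle glycogen phosphorylase and the fast troponin T, lay between 13.58 and 13.88 in all 6 arrays. Mettl21c, the second marker of the muscle, lay between 8.45 and 9.56 and is described below, since its level differed with age. Array medians ran from 6.36 to 6.40, and Pearson's r between arrays lay between 0.992 and 0.996 across genes, which do not count as replicates. With 3 arrays per age, a typical standard error (SE) of a difference was 0.08, the median over genes.

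Each age had one array that stood apart in transcripts of other fibres or tissues, as the plot of list levels by array shows. In the 24-month array of replicate 1, the mean over 18 hepatocyte markers was 8.15, against 6.44 and 6.38 in the other 24-month arrays and 6.71 to 7.06 in the 6-month arrays. Alb, serum albumin, reached 11.91 in that array and lay between 7.58 and 10.45 in the other 5. Over all arrays none of the 18 hepatocyte markers reached an unadjusted p under 0.05, and without that array 13 were lower at that level at 24 months. In the same array the mean over 12 tendon markers was 8.11, against 7.40 and 7.16 in the other 24-month arrays and 7.53, 7.19 and 7.57 in the 6-month arrays, and the cartilage-associated Cytl1 lay at 10.50 against 7.36 to 7.57 elsewhere. The 6-month array of replicate 3 had a mean of 9.32 over 14 genes of the slow sarcomere, against 8.26, 8.40 and 7.86 at 24 months and 7.38 and 7.78 in the other 6-month arrays. Myl3, the slow and ventricular essential light chain, lay at 10.31 in it and at 6.00 and 7.22 in the other 6-month arrays. The part of these 2 arrays in the differences below was not tested. Values without one of them are given beside many, not all, of the lists and genes they move, and many members just past an unadjusted p of 0.05 missed it with an array fewer.

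**Figure D1:**
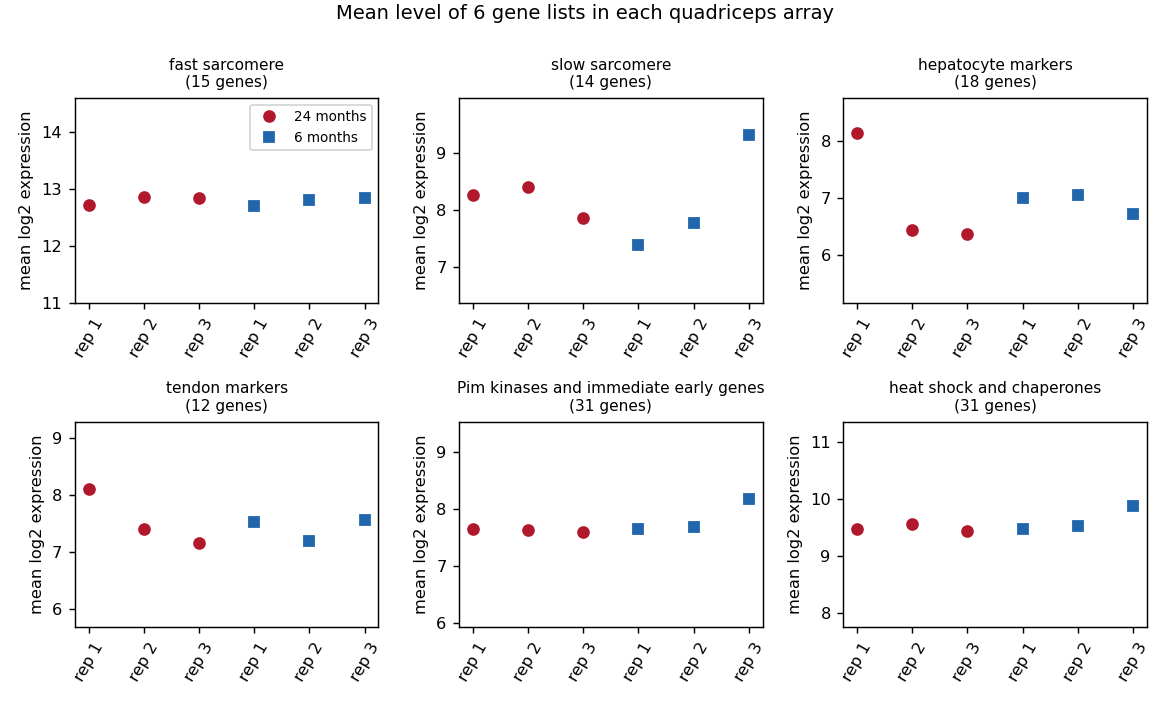
Mean log2 expression of 6 gene lists (vertical axes) in the 3 quadriceps arrays of 24 months (red circles) and the 3 of 6 months (blue squares), with the number of measured genes in each panel's title. The fast sarcomere lay between 12.71 and 12.86 in all arrays, the hepatocyte and tendon markers were highest in the 24-month array of replicate 1, and the slow sarcomere, the immediate early genes and the chaperones were highest in the 6-month array of replicate 3.

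Across 19928 genes, the age difference passed the adjusted threshold of 0.05 in 1 gene, Mettl21c, which is 0.00502% of those tested. Differences were small: the median absolute difference over all genes was 0.07, the signed median was 0.01, and 4 genes differed by more than 1 on the log2 scale, namely Ostn, Mir133a-2, Mir1a-1 and Nr4a2. At an unadjusted p under 0.05, 757 genes (3.8%) had a higher mean and 649 (3.26%) a lower mean at 24 months. All 24-month arrays lay above all 6-month arrays in 1333 genes (6.69%) and below them in 1062 (5.33%). The 24-month mean was the higher one in 52.3% of genes and the lower one in 46.4%. These percentages are the background against which the counts in gene lists are read, and genes at an unadjusted p under 0.05 are described below by their values and not as changes. Genes named for a small p were chosen on these same arrays, so ages without overlap in them are no separate support.

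Mettl21c fell in old muscle. It measured 8.46, 8.45 and 8.58 in the 24-month arrays and 9.56, 9.40 and 9.36 in the 6-month arrays. The arrays of one age lay close together and every 24-month array lay below every 6-month array. The fall of 0.94 (SE 0.08), to 0.52 of the 6-month level on the linear scale, had an adjusted p of 0.0303 in limma, with 3 arrays per age. With any one array left out, the difference stayed between -0.98 and -0.88 but limma's adjusted p lay between 0.0811 and 0.304, so the call was lost with each array left out. In liver Mettl21c lay near the bottom of the scale, with means of 4.51 at 24 months and 4.44 at 6 months.

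Of 17 measured genes of a list of protein methyltransferases and the substrate Vcp, 11 had a lower mean and 3 were lower at an unadjusted p under 0.05. Beside Mettl21c these were Etfbkmt and Mettl21e, and none was higher at that level. Mettl21e, another Mettl21 family member of mouse muscle, measured 5.18, 5.13 and 5.20 at 24 months and 5.46, 5.80 and 5.59 at 6 months, a difference of -0.45 (SE 0.09). It is a dim probe set, and its ages did not overlap. In the RefSeq table of assembly GRCm38.p6 both genes lie on chromosome 1, with a few other genes between them. Etfbkmt, which methylates the beta subunit of the electron transfer flavoprotein in mitochondria, measured 7.87, 7.56 and 7.71 at 24 months against 8.12, 8.27 and 8.21 at 6 months, a difference of -0.49 (SE 0.09). Other members stayed close: Mettl21a differed by -0.10, Vcpkmt by 0.04 and Eef1akmt3 by 0.08, each with an SE of at most 0.10, and Vcp, a substrate of Vcpkmt, differed by -0.04 (SE 0.08). Smyd1, a methyltransferase of the sarcomere, differed by -0.12 (SE 0.09).

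Among the genes of smallest p with a lower mean were also Slc40a1, Pim1 and Irs1, whose adjusted p missed the threshold. Sh3rf2 and Cyp4f39, which had higher means, and the pseudogene Mfsd4b3-ps had a smaller p than these 3 and are described below. Slc40a1, ferroportin, the exporter of iron from cells, measured 8.31, 8.36 and 8.28 at 24 months and 8.88, 8.85 and 8.99 at 6 months. Its difference was -0.59 (SE 0.07) with an adjusted p of 0.0811 in limma. Pim1, a serine/threonine kinase whose transcript is short-lived and induced by cytokines, measured 8.47, 8.29 and 8.09 at 24 months and 9.21, 9.04 and 9.09 at 6 months, a difference of -0.83 (SE 0.10). Irs1, the docking protein through which the insulin and IGF1 receptors reach PI3 kinase, measured 8.72, 8.68 and 8.54 at 24 months and 9.18, 9.30 and 9.22 at 6 months, a difference of -0.59 (SE 0.08). Its second probe set, dimmer, differed by -0.15. Adjusted p was 0.0906 for Pim1 and 0.101 for Irs1 in limma. With dim genes left out, an alternative setting, Slc40a1, Pim1 and Irs1 were among 9 genes called. Of 17 alternatives, Slc40a1 and Irs1 were called in 3 each and Pim1 in 4, and none of them with any single array left out.

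The other genes of smallest p with a lower mean came from several pathways. Rgs2, which shortens G-protein signals, measured 5.92, 6.00 and 6.21 at 24 months and 6.71, 6.97 and 7.26 at 6 months, a difference of -0.94 (SE 0.14), as large as that of Mettl21c but with more spread. Slc25a36, a carrier of pyrimidine nucleotides into mitochondria, measured 9.27, 9.10 and 9.10 at 24 months and 9.66, 9.72 and 9.64 at 6 months. Both probe sets of Slc25a36 were lower at 24 months, by -0.52 for the brighter and -0.41 for the dimmer. Tgif1, a homeobox repressor of TGF-beta targets, differed by -0.55 (SE 0.09), Cdc14a, a phosphatase, by -0.51 (SE 0.08), and Avil, an actin-binding protein of the gelsolin family, by -0.41 (SE 0.06). Zfp708, a zinc finger gene, differed by -0.45 (SE 0.07) and the pseudogene Mfsd4b3-ps by -0.60 (SE 0.07). In all of these the 24-month arrays lay below every 6-month array, a pattern that choosing by small p on these arrays favours.

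**Figure D2:**
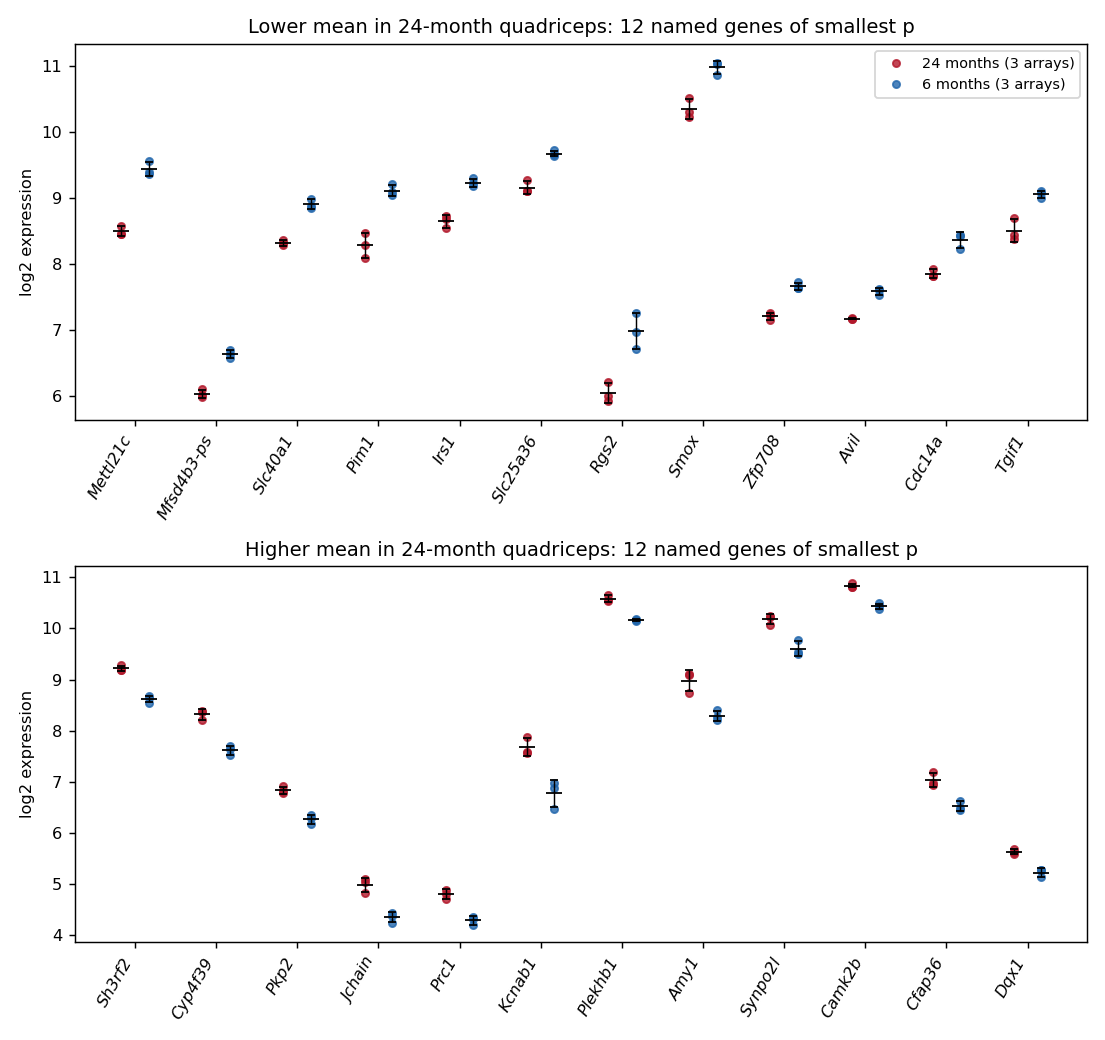
Log2 expression (vertical axes) of the 12 named genes of smallest p with a lower mean (upper panel) and the 12 with a higher mean (lower panel) at 24 months, in 3 arrays of 24 months (red, left of each pair) and 3 of 6 months (blue, right); long bars are means and short bars 1 SD either side. In none of the 24 genes did the ages overlap, which choosing them by small p on these same arrays favours. Over all genes, every 24-month array lay above every 6-month array in 6.69% and below in 5.33%. Mettl21c, Rgs2 and Kcnab1 differed by 0.94, 0.94 and 0.91 in size.

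Among genes with a higher mean at 24 months, those of smallest p included membrane, contractile and signalling proteins. Sh3rf2, a scaffold with SH3 domains and a RING finger, measured 9.19, 9.19 and 9.28 at 24 months and 8.63, 8.55 and 8.67 at 6 months, a difference of 0.60 (SE 0.07) with an adjusted p of 0.0811 in limma. Cyp4f39, a cytochrome P450 that hydroxylates fatty acids, measured 8.20, 8.39 and 8.37 at 24 months against 7.52, 7.65 and 7.69 at 6 months, a difference of 0.70 (SE 0.08). Kcnab1, an auxiliary subunit of voltage-gated potassium channels, measured 7.59, 7.56 and 7.88 at 24 months and 6.97, 6.87 and 6.47 at 6 months, a difference of 0.91 (SE 0.14). The ages stood clear of each other in all 3, which choosing by small p on these arrays favours. A further pair encodes proteins of cell junctions and the Z-disc: Pkp2, plakophilin 2 of the desmosome, differed by 0.57 (SE 0.07) and Synpo2l, an actin-bundling protein of the Z-disc, by 0.58 (SE 0.09).

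The remaining named genes with a higher mean were Amy1, Plekhb1, Camk2b, Cfap36, Dqx1, Jchain and Prc1. Amy1, an amylase that cleaves starch and glycogen, measured 8.74, 9.09 and 9.11 at 24 months and 8.40, 8.26 and 8.20 at 6 months, a difference of 0.69 (SE 0.11). The mouse has near-identical amylase genes, so the share of Amy1 itself in this signal is uncertain. Plekhb1 differed by 0.42 (SE 0.07), Cfap36, a protein of cilia, by 0.52 (SE 0.09), and the helicase-like Dqx1 by 0.40 (SE 0.07). Dqx1 is a dim probe set, with means of 5.63 at 24 months and 5.22 at 6 months. Jchain and Prc1 are described with the immune and cell cycle genes, and Camk2b with calcium handling.

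Over the lists of pathways and cell types, whose members' differences the plot of list members shows, Mettl21c was the one member past the adjusted threshold. The counts that follow are of members at an unadjusted p under 0.05, against 3.8% of all genes higher and 3.26% lower. Where arrays were left out, the background shares moved too. They were 4.38% higher and 3.56% lower without the 6-month array of replicate 3, and 4.03% and 3.91% without the 24-month array of replicate 1. Without both they were 5.54% higher and 4.82% lower.

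**Figure D3:**
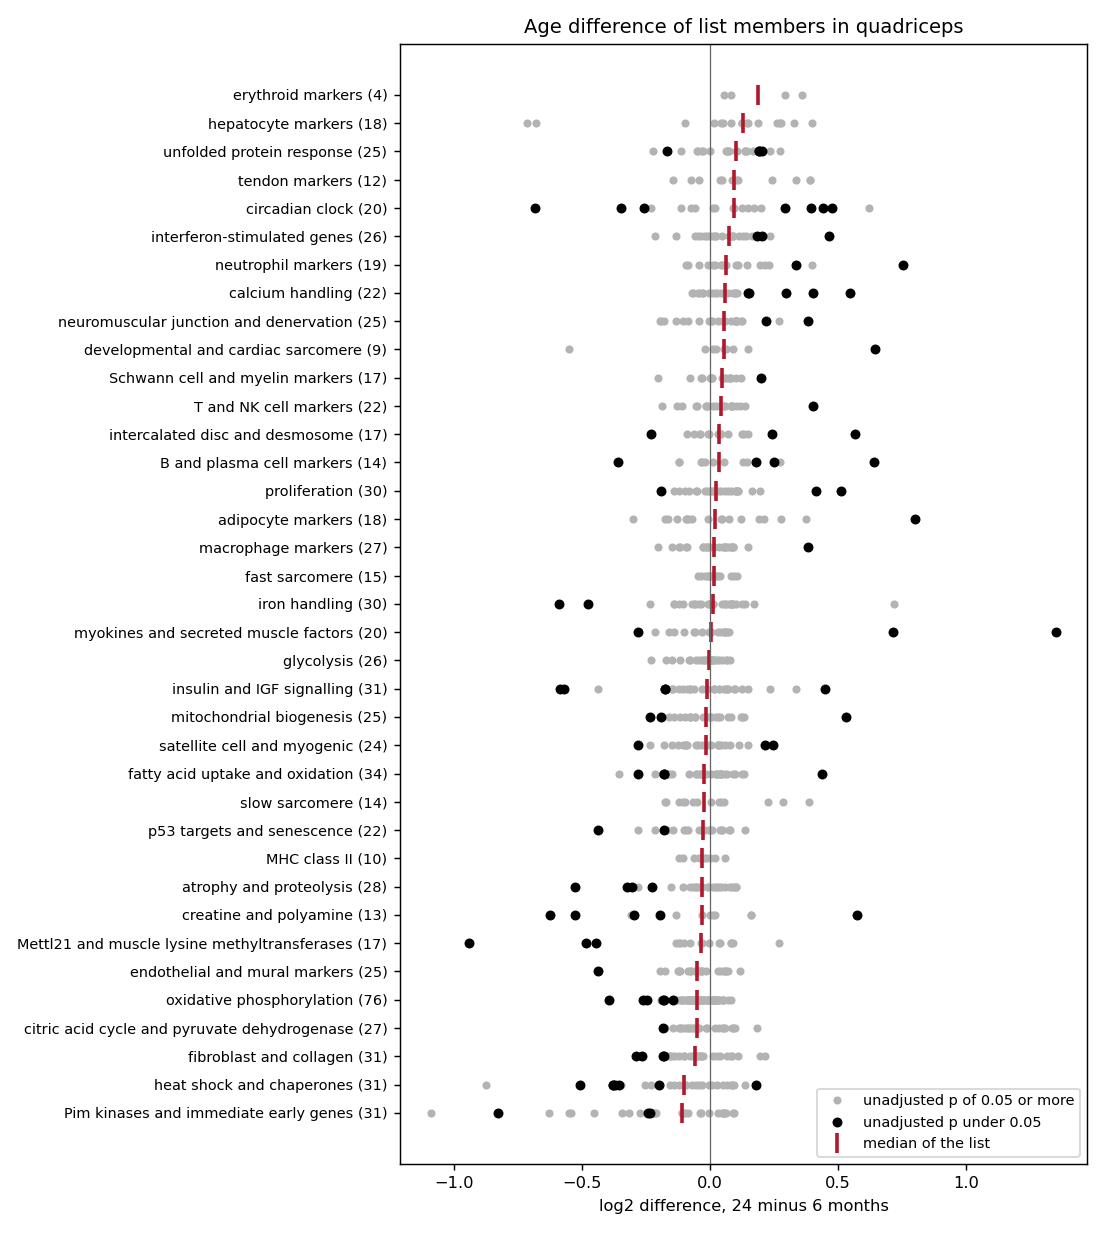
Log2 difference, 24 minus 6 months (horizontal axis), of every measured member of 37 gene lists (rows, with the number of members), sorted by the list's median (red bar); black points are members at an unadjusted p under 0.05 and grey points the others. List medians lay between -0.11 for the Pim kinases and immediate early genes and 0.19 for the 4 erythroid markers, and the points farthest from 0 were Ostn at 1.35, Nr4a2 at -1.09 and Mettl21c at -0.94.

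The sarcomere of fast fibres differed little between the ages. None of the 15 fast sarcomere genes reached an unadjusted p under 0.05 in either direction, and their differences ran from -0.05 to 0.11 with a median of 0.02. Myh1 and Myh2, the myosins of the other fast fibre types, differed by -0.02 (SE 0.27) and -0.01 (SE 0.51), with wide spread between arrays of one age, and by 0.20 and 0.53 without the 6-month array of replicate 3. Myh2 measured 10.34, 11.57 and 11.30 at 24 months and 10.00, 11.08 and 12.16 at 6 months. None of the 14 slow sarcomere genes reached that level either, with 7 higher and 7 lower. Without the 6-month array of replicate 3, all 14 had a higher mean at 24 months, against 53.2% of all genes, with a median difference of 0.66 and 5 at an unadjusted p under 0.05. Myh7, the slow myosin heavy chain, measured 8.23, 7.77 and 6.91 at 24 months and 6.96, 6.89 and 9.35 at 6 months, so that its difference was -0.10 (SE 0.62) over all arrays and 0.71 without that array. Of 9 developmental and cardiac sarcomere genes, Mybph, a myosin-binding protein, differed by 0.64 (SE 0.26), with overlapping ages, and by 0.32 without the 6-month array of replicate 3, where it missed that level. The embryonic and perinatal myosins Myh3 and Myh8 differed by 0.02 and 0.01.

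Of 22 measured genes of calcium handling, 15 had a higher mean, against 52.3% of all genes. At an unadjusted p under 0.05, 5 were higher and none lower. Camk2b, a subunit of the calcium/calmodulin-dependent kinase, measured 10.82, 10.88 and 10.82 at 24 months and 10.49, 10.39 and 10.43 at 6 months, a difference of 0.40 (SE 0.07). Sln, sarcolipin, which uncouples the sarcoplasmic calcium pump, measured 6.55, 6.14 and 6.07 at 24 months and 5.64, 5.80 and 5.68 at 6 months, a difference of 0.55 (SE 0.12). Arrays of the ages did not overlap in either gene. The voltage sensor and the release channel differed by less: Cacna1s by 0.15 (SE 0.06), Ryr1 by 0.15 (SE 0.06) and the channel subunit Cacng1 by 0.30 (SE 0.08). Without the 6-month array of replicate 3, 3 genes were higher and 1 lower at that level, and the list divided into 11 higher and 11 lower. Ryr1 missed that level with any single array left out. In gastrocnemius the median of the list was -0.11. Ryr1, Cacna1s and Cacng1 differed there by -0.19, -0.07 and -0.045, while Camk2b and Sln differed by 0.14 and 0.80.

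At the neuromuscular junction, 2 of 25 genes were higher at an unadjusted p under 0.05 and none lower. Without the 6-month array of replicate 3, 5 were higher and none lower, and 20 of 25 had a higher mean. Chrnb1, the beta subunit of the muscle acetylcholine receptor, measured 9.01, 8.68 and 8.83 at 24 months and 8.51, 8.41 and 8.45 at 6 months, a difference of 0.38 (SE 0.09). Fgfbp1, a carrier of fibroblast growth factors, was higher by 0.22 (SE 0.08). The other receptor subunits differed by less: Chrna1 differed by 0.08 (SE 0.12), Chrnd by 0.00 (SE 0.14), Chrne by -0.09 (SE 0.15), and Chrng, the fetal subunit that returns after denervation, by -0.04 (SE 0.09). Musk, the kinase that organises the junction, differed by 0.12 (SE 0.12) and Myog, the myogenic factor induced by denervation, by -0.18 (SE 0.11). Without that array the difference was 0.21 for Musk and -0.06 for Myog.

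Of 24 satellite cell and myogenic genes, 2 were higher and 1 lower at that level. Calcr, the calcitonin receptor of quiescent satellite cells, had a difference of -0.28 (SE 0.09) at a level near 6, and Pax7, the factor that marks these cells, differed by -0.09 (SE 0.11), or -0.16 without the 6-month array of replicate 3. Mef2c, a transcription factor of muscle genes, was higher by 0.25 (SE 0.08) and Mymk, which drives myoblast fusion, by 0.22 (SE 0.09). In bulk muscle, fewer cells of a type and less RNA per cell cannot be told apart.

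Of 28 measured genes of atrophy and protein breakdown, 4 were lower at an unadjusted p under 0.05 and none higher. Trim63, the ubiquitin ligase MuRF1, measured 11.91, 11.02 and 11.03 at 24 months and 11.72, 11.97 and 11.86 at 6 months. Fbxo32, the ligase atrogin-1, measured 12.64, 12.28 and 12.20 at 24 months and 12.70, 12.73 and 12.66 at 6 months. In both genes the 24-month array of replicate 1 lay near the 6-month arrays and the other 2 lay below them. The difference of Trim63 was -0.53 (SE 0.22) over all arrays and -0.82 without that array, and that of Fbxo32 was -0.32 (SE 0.11) and -0.46. Fbxo30, the ligase of the BMP-controlled branch, differed by -0.31 (SE 0.11) and Bnip3, a mitophagy receptor, by -0.23 (SE 0.09). The count of members lower was 6 without the 24-month array of replicate 1 and 1 without the 6-month array of replicate 3. Foxo1, a transcription factor of these ligases, differed by -0.01, and Mstn, myostatin, by 0.06.

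Insulin and IGF signalling held 4 members lower and 1 higher at that level among 31 measured. Beside Irs1, the growth factor Igf1 measured 7.41, 7.22 and 7.18 at 24 months and 7.70, 7.83 and 7.99 at 6 months, a difference of -0.57 (SE 0.10) with no overlap. Slc2a4, the glucose transporter GLUT4 that insulin brings to the membrane, differed by -0.18 (SE 0.06) and Pik3ca, the catalytic subunit of PI3 kinase, by -0.18 (SE 0.07). Igfbp3, a binding protein of IGF1 in the blood and matrix, differed by 0.45 (SE 0.16), and by 0.29 without the 6-month array of replicate 3. The receptors and the next kinase differed by less: Insr by 0.02 (SE 0.07), Igf1r by -0.15 (SE 0.08) and Akt2 by -0.06 (SE 0.07). Irs2 measured 8.28, 8.34 and 8.21 at 24 months and 8.36, 8.48 and 9.30 at 6 months, so that its difference of -0.44 was -0.14 without the 6-month array of replicate 3. Without that array 2 members were lower and none higher at that level. The median of the list was -0.01, close to the 0.01 of all genes.

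The iron genes, Slc40a1 included, had a higher mean in 16 of 30 and a lower mean in 14. Hmox1, heme oxygenase 1, which frees iron from heme, measured 7.64, 7.47 and 7.48 at 24 months and 7.90, 7.91 and 8.21 at 6 months, a difference of -0.48 (SE 0.10), and was the other member at an unadjusted p under 0.05. Tfrc, the transferrin receptor that imports iron, differed by -0.24 (SE 0.18) and by -0.40 without the 6-month array of replicate 3, and Fth1, the heavy chain of ferritin, the iron store, by -0.01 (SE 0.06).

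Several genes of polyamine turnover had a lower mean at 24 months. Of 13 genes of creatine and polyamine metabolism, 4 were lower and 1 higher at an unadjusted p under 0.05, and all 4 that were lower act on polyamines. Smox, spermine oxidase, measured 10.31, 10.23 and 10.52 at 24 months and 11.04, 11.03 and 10.87 at 6 months, a difference of -0.63 (SE 0.09). Odc1, ornithine decarboxylase, the first enzyme of the synthesis, measured 10.21, 9.70 and 9.83 at 24 months and 10.25, 10.60 and 10.47 at 6 months, a difference of -0.53 (SE 0.14). Azin1, which protects ornithine decarboxylase from its antizyme, differed by -0.30 (SE 0.08) and Sat1, which acetylates spermidine and spermine for export, by -0.20 (SE 0.07). None of the 4 overlapped between the ages, but they were picked by p on these same arrays. Over all genes, 5.33% had every 24-month array below every 6-month array. The 24-month value of Odc1 in replicate 1 lay just below the lowest 6-month array. Srm, spermidine synthase, differed by -0.03 (SE 0.07). On the creatine side, Gamt, the enzyme of the last step of creatine synthesis, measured 9.29, 9.51 and 9.57 at 24 months and 9.11, 8.96 and 8.58 at 6 months, a difference of 0.57 (SE 0.14). Without the 24-month array of replicate 1 and the 6-month array of replicate 3 together, 3 polyamine genes were lower and Gamt higher at that level.

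Of 76 measured subunits of oxidative phosphorylation, 57 had a lower mean, against 46.4% of all genes, and 6 were lower at an unadjusted p under 0.05. Differences were small, with a median of -0.05. Without the 24-month array of replicate 1, 44 subunits had a higher and 31 a lower mean, against 53.7% and 45.6% of all genes, and 1 was lower at that level. The subunits with the largest such differences were Ndufb2 and Ndufa2 of complex I, at -0.40 (SE 0.13) and -0.26 (SE 0.08). Cox6a2, the muscle form of a cytochrome c oxidase subunit, measured 12.88, 12.91 and 12.89 at 24 months and 13.05, 13.01 and 13.06 at 6 months, a difference of -0.15 (SE 0.06) with no overlap. In the citric acid cycle 1 of 27 genes was lower at that level, Idh1, the cytosolic isocitrate dehydrogenase, at -0.18 (SE 0.07). Glycolysis had none of 26 genes at that level and a median of -0.01. Without the 6-month array of replicate 3 it had 3 lower at that level, 20 of 26 with a lower mean and a median of -0.03.

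Among regulators of mitochondria, Prkag3, the gamma subunit of AMP-activated kinase found in fast muscle, measured 10.10, 10.19 and 10.17 at 24 months and 9.89, 9.56 and 9.42 at 6 months, a difference of 0.53 (SE 0.12). Tfam, which packs mitochondrial DNA, and Tfb1m, a methyltransferase of mitochondrial ribosomal RNA, differed by -0.19 (SE 0.08) and -0.23 (SE 0.06). Ppargc1a, the coactivator PGC-1 alpha, differed by 0.03 (SE 0.15), and by 0.18 without the 24-month array of replicate 1. In fatty acid handling, 3 of 34 genes were lower and 1 higher at that level, with a median of -0.02. Without the 6-month array of replicate 3, 2 were lower and 1 higher, and the median was 0.06. Without the 24-month array of replicate 1 as well, 2 were lower and 5 higher, and the median was 0.135, against 0.015 for all genes. Acsl6, a long-chain acyl-CoA synthetase, was higher by 0.44 (SE 0.10), and Angptl4, a secreted inhibitor of lipoprotein lipase, had a difference of -0.28 (SE 0.09), at 7.86, 7.81 and 7.65 in 24-month muscle against 8.16, 8.08 and 7.92 in 6-month muscle. Pdk4, the kinase that shuts pyruvate dehydrogenase during fasting, was among the brightest genes, between 13.63 and 13.83, and differed by -0.11 (SE 0.07).

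The circadian clock had 4 of 20 measured genes higher and 3 lower at an unadjusted p under 0.05. The clock runs on the activators Arntl and Clock, which bind E-boxes and switch on the Per, Cry and Nr1d genes and Dbp; the Per and Cry proteins then block the activators. Nr1d1 and Nr1d2 repress Arntl and Nfil3 through ROR elements. Among members at that level, Nfil3, Arntl and Clock had lower means and Per2, Per1, Dbp and Bhlhe40 higher ones. Nfil3, a repressor of Dbp targets, measured 7.95, 7.61 and 7.45 at 24 months and 8.17, 8.32 and 8.57 at 6 months, a difference of -0.68 (SE 0.14). Arntl measured 8.45, 8.09 and 7.88 at 24 months and 8.42, 8.53 and 8.52 at 6 months, a difference of -0.35 (SE 0.13), and Clock differed by -0.26 (SE 0.10). Per2 measured 7.21, 7.51 and 7.58 at 24 months and 6.99, 6.70 and 7.18 at 6 months, a difference of 0.48 (SE 0.14). Per1 was higher by 0.44 (SE 0.19), and by 0.68 without the 6-month array of replicate 3, Dbp by 0.39 (SE 0.16) and Bhlhe40, a repressor that competes at E-boxes, by 0.29 (SE 0.12).

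Nfil3 and Per2 were separated between the ages, while Arntl, Clock, Per1, Dbp and Bhlhe40 overlapped. Nr1d1 differed by -0.23 (SE 0.10), Nr1d2 by 0.09 (SE 0.08), Cry1 by -0.07 (SE 0.08) and Ciart, another E-box target, by 0.62 (SE 0.29). Nr1d1 and Ciart were chosen after their values were seen, as were the other clock genes outside the named members. Without the 24-month array of replicate 1 and the 6-month array of replicate 3, 4 members were higher and 4 lower at that level. The labels used here do not give the hour of death of either group, and the part of the time of day in these values was not tested. In liver of the same ages, Arntl differed by -0.68, Clock by -0.28, Per1 by 0.61 and Dbp by 0.50, the same directions as in quadriceps. Per2 at 0.16 (SE 0.155) and Bhlhe40 at 0.28 (SE 0.24) also had the same direction in liver. Nfil3 differed by 0.24 (SE 0.16) there, the opposite direction. In gastrocnemius, on another array type, Nfil3 differed by -0.39 (SE 0.08), Arntl by -0.20, Per2 by 0.25, Bhlhe40 by 0.26 and Dbp by 0.165, the directions of quadriceps. Clock, at 0.03 in gastrocnemius, had the opposite direction.

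**Figure D4:**
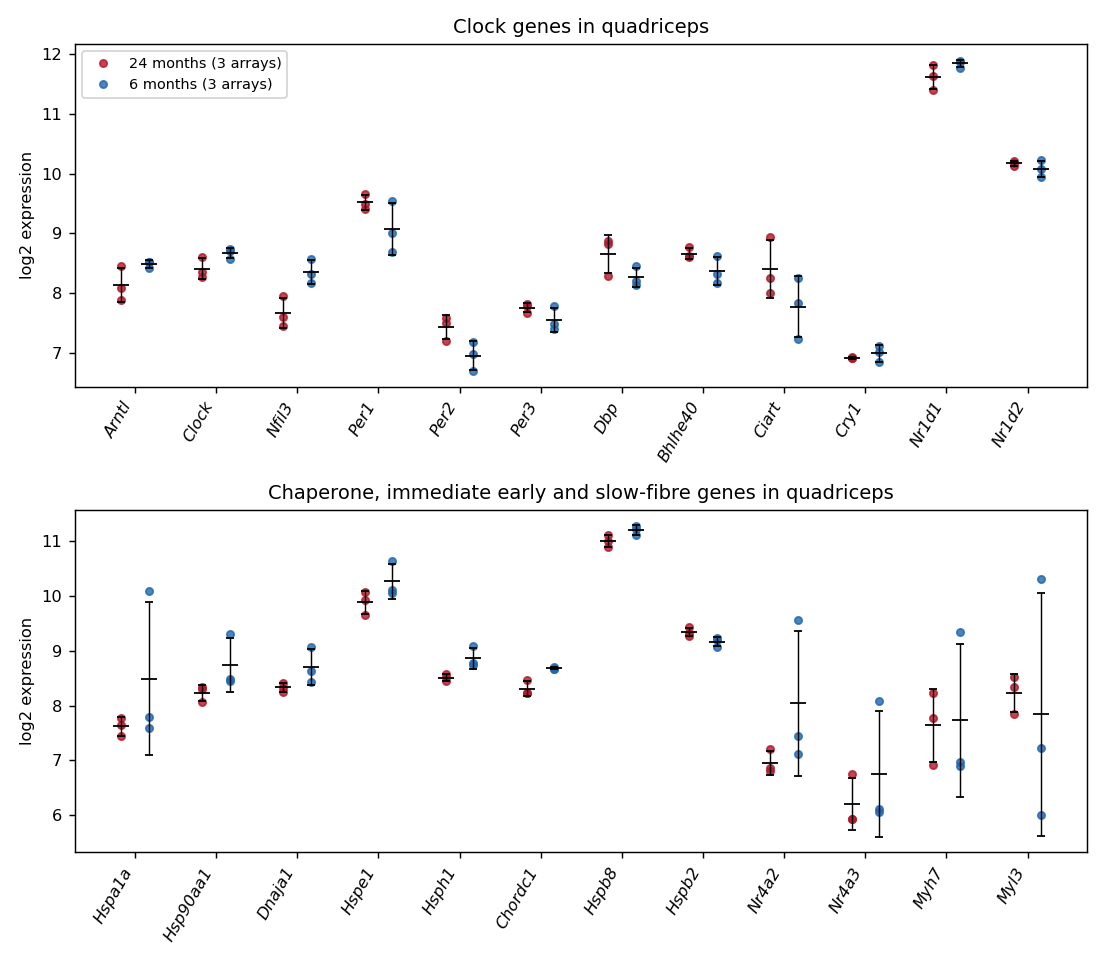
Log2 expression (vertical axes) of 12 clock genes (upper panel) and of 12 chaperone, immediate early and slow-fibre genes (lower panel) in 3 quadriceps arrays of 24 months (red, left of each pair) and 3 of 6 months (blue, right); long bars are means and short bars 1 SD either side. Nfil3 and Per2 were separated by age, while Hspa1a, Nr4a2, Nr4a3, Myh7 and Myl3 each had 1 high 6-month array, that of replicate 3.

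The promoters of 3 clock genes are shown for a single RefSeq start site each, because they carry the elements of the loop that links these members. Each runs over the 250 bases before and 50 after that start site. Capitals mark the ROR core TAGGTNA, on either strand, in Arntl and Nfil3, and the E-box CACGTG, which reads the same on both strands, in Per1.
Arntl, chr7:113207261-113207560, GRCm38.p6, plus strand: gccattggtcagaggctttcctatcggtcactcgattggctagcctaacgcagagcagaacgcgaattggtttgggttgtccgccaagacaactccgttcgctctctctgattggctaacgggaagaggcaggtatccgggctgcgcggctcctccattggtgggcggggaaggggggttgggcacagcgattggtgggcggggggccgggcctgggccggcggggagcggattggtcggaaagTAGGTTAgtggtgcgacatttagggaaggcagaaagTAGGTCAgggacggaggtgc
Nfil3, chr13:52980990-52981289, GRCm38.p6, minus strand: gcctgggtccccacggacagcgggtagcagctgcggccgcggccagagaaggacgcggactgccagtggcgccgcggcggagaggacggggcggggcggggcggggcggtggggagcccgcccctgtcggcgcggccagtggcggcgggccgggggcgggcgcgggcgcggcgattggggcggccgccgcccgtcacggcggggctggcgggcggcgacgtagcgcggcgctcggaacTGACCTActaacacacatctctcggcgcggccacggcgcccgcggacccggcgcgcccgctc
Per1, chr11:69098699-69098998, GRCm38.p6, plus strand: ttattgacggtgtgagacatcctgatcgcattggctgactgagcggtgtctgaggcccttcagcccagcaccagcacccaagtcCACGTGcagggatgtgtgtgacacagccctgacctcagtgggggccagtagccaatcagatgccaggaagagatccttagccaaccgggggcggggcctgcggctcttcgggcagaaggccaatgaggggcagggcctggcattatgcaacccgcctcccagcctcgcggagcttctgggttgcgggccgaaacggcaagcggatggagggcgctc
In the windows shown, Arntl holds 2 such cores and Nfil3 1. RefSeq gives Arntl and Per1 another start site each, whose window holds 1 core in Arntl and no E-box in Per1. Among the 17 listed clock genes whose promoters were counted, Arntl and Nfil3 were the only genes with a core. The core occurs in 8.29% of 32851 RefSeq mouse promoters and in 9.51% of the 27025 genes they belong to. Of the 17 clock genes 2 hold it, close to the share of all genes. The E-box occurs in 7.15% of the promoters, in 8.09% of the genes and in 5 of the 17 clock genes, Bhlhe41, Ciart, Cry1, Per1 and Tef. A match is a description of letters and not of binding.

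Most chaperones of the heat shock response had a lower mean in quadriceps at 24 months. Of 31 measured, 22 had a lower mean, 6 were lower and 1 higher at an unadjusted p under 0.05, and the median was -0.10 against 0.01 for all genes. Chordc1, a co-chaperone of HSP90, measured 8.22, 8.23 and 8.47 at 24 months and 8.70, 8.67 and 8.67 at 6 months, a difference of -0.37 (SE 0.08). Hsph1, a nucleotide exchange factor of HSP70, measured 8.52, 8.57 and 8.44 at 24 months and 8.77, 8.74 and 9.09 at 6 months, a difference of -0.36 (SE 0.10). Both were separated by age, and without the 6-month array of replicate 3 they differed by -0.38 and -0.24. Hsp90aa1, the inducible HSP90, measured 8.33, 8.31 and 8.06 at 24 months and 8.48, 8.44 and 9.30 at 6 months, and its difference of -0.51 (SE 0.21) was -0.23 without that array. Hspe1, the mitochondrial co-chaperonin, and Dnaja1, an HSP40, each differed by -0.38 and each by -0.20 without it. Hspb8, a small heat shock protein of muscle, differed by -0.20 (SE 0.08) and Hspb2, another, by 0.18 (SE 0.08). Without that array 2 members were lower and 2 higher at that level, 19 of 31 had a lower mean and the median was -0.03. In gastrocnemius, Chordc1 and Hsp90aa1 differed by 0.12 and 0.195, while Hsph1, Hspe1 and Hspb8 differed by -0.065, -0.20 and -0.245. The median of the 30 members measured there was -0.05. In liver, Chordc1, Hsph1 and Hsp90aa1 differed by -0.81, -0.85 and -0.75, and Hspe1, Dnaja1 and Hspb8 also had lower means.

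The promoters of 3 of these chaperones are shown because a consensus for heat shock factor, the activator of chaperone genes, lies in each. The letters searched were GAANNTTCNNGAA and, on the other strand, TTCNNGAANNTTC, and capitals mark every match, joined where matches overlap.
Chordc1, chr9:18292017-18292316, GRCm38.p6, plus strand: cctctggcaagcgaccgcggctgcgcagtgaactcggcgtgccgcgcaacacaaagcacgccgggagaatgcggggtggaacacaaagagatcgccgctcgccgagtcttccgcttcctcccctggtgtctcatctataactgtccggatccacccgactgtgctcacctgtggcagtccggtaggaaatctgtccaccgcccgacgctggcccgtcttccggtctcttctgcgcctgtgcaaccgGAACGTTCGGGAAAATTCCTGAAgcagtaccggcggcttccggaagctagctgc
Hsph1, chr5:149636266-149636565, GRCm38.p6, minus strand: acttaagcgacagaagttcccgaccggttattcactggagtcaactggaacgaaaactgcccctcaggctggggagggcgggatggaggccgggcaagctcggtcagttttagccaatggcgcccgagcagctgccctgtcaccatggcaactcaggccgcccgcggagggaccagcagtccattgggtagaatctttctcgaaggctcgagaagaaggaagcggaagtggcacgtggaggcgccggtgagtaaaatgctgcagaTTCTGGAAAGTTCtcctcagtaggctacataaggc
Hspe1, chr1:55087898-55088197, GRCm38.p6, plus strand: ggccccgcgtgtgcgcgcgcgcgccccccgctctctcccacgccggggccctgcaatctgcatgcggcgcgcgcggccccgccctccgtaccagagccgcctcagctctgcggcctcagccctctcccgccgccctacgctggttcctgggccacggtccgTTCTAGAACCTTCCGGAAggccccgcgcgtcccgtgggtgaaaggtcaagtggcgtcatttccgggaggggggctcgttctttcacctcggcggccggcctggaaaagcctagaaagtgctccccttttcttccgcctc
Chordc1 holds 3 overlapping matches around its start site, Hspe1 2 overlapping ones upstream, and Hsph1 1 downstream of the start site. The consensus occurs in 0.603% of the RefSeq promoters and in 0.662% of the genes they belong to. Among the 26 listed chaperones whose promoters were counted, it occurs in 4. The other one is Hspd1, whose window overlaps that of Hspe1 on the opposite strand. Entries on a single chromosome were left out of the counts for the clock and chaperone lists. Hspd1, the mitochondrial chaperonin itself, measured 9.42, 9.60 and 9.55 at 24 months and 9.51, 9.55 and 9.67 at 6 months, a difference of -0.05 (SE 0.08).

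Many immediate early genes were highest in the 6-month array of replicate 3. Of 31 measured, the Pim kinases included, 23 had a lower mean at 24 months, while without that array 15 had a lower and 15 a higher mean, against 46.1% and 53.2% of all genes. Nr4a2, an orphan nuclear receptor induced by muscle activity, measured 6.85, 7.21 and 6.80 at 24 months and 7.12, 7.45 and 9.56 at 6 months. Its difference of -1.09 was -0.33 without that array, while the difference of Pim1 without it was -0.84. Pim2 and Pim3, the relatives of Pim1, differed by -0.09 (SE 0.07) and -0.11 (SE 0.07). Cebpb, a transcription factor, had a difference of -0.23 (SE 0.08), at 7.99, 7.81 and 7.76 in 24-month muscle against 8.06, 8.10 and 8.10 in 6-month muscle.

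The unfolded protein response of the endoplasmic reticulum had 3 of 25 genes higher and 1 lower at that level. Hspa5, the chaperone BiP, measured 10.29, 10.27 and 10.21 at 24 months and 10.06, 10.00 and 10.10 at 6 months, a difference of 0.20 (SE 0.07) with no overlap. Manf, a secreted protein of the same response, was higher by 0.19 (SE 0.07) and Dnajb11, a co-factor of BiP, by 0.19 (SE 0.08), or 0.12 without the 6-month array of replicate 3, while Atf4, a transcription factor of amino acid shortage, was lower, at 8.40, 8.26 and 8.29 in 24-month muscle against 8.44, 8.45 and 8.56 in 6-month muscle. Of 22 p53 target and senescence genes, 2 were lower and none higher. Cdkn1b, the cell cycle inhibitor p27, measured 8.72, 8.58 and 8.36 at 24 months and 9.05, 9.10 and 8.82 at 6 months, a difference of -0.44 (SE 0.11). Cdkn2a, whose product p16 marks senescent cells, measured 6.62, 6.67 and 6.79 at 24 months and 6.53, 6.61 and 6.53 at 6 months, a difference of 0.14 (SE 0.07). The ages of Cdkn2a did not overlap, but it did not reach that level.

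Of 31 matrix and fibroblast genes, 22 had a lower mean, 4 were lower at an unadjusted p under 0.05 and none higher, and 26 had a lower mean without the 24-month array of replicate 1. Col1a2, a chain of type I collagen, measured 8.24, 8.19 and 8.08 at 24 months and 8.60, 8.37 and 8.34 at 6 months, a difference of -0.27 (SE 0.09). Its partner Col1a1 differed by -0.18 (SE 0.09), Col3a1 of type III collagen by -0.18 (SE 0.07), the small proteoglycan Lum by -0.18 (SE 0.07) and the matrix protein Postn by -0.29 (SE 0.10). In endothelium, Cldn5, a tight junction protein, measured 8.54, 8.58 and 8.25 at 24 months and 8.84, 8.81 and 9.04 at 6 months, a difference of -0.44 (SE 0.11), and was the 1 member of 25 at that level. Of these 25, 18 had a lower mean, or 13 without the 6-month array of replicate 3. At the desmosome and intercalated disc, 2 of 17 genes were higher, Pkp2 and the alpha catenin Ctnna3, and 1 lower, Vcl, which encodes vinculin. Ctnna3 differed by 0.24 (SE 0.09) and Vcl by -0.23 (SE 0.08).

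Among transcripts of immune cells, Jchain, which joins IgA and IgM into polymers and is made by plasma cells, measured 5.04, 4.83 and 5.09 at 24 months and 4.43, 4.24 and 4.37 at 6 months, a difference of 0.64 (SE 0.09) with no overlap. Of the 14 measured B and plasma cell markers, Ms4a1 and Pou2af1 were also higher at an unadjusted p under 0.05, by 0.25 (SE 0.09) and 0.18 (SE 0.07), while Cd79a, part of the B cell receptor, was lower at -0.36 (SE 0.12). Among the other markers, Ighm differed by -0.04 and Mzb1 by -0.12. The mean of the list was 5.61, 5.67 and 5.74 at 24 months and 5.63, 5.57 and 5.62 at 6 months. Among neutrophil markers, 2 of 19 were higher, Ngp by 0.75 (SE 0.22) and S100a9 by 0.34 (SE 0.10), and S100a8, the partner of S100a9, differed by 0.02. Lgals3, galectin 3 of macrophages, was higher by 0.38 (SE 0.10), and Rsad2, an antiviral gene induced by interferon, by 0.47 (SE 0.11), one of 3 interferon-stimulated genes among 26 at that level. The median of these 26 was 0.075, or 0.01 without the 6-month array of replicate 3, where 3 were higher and 1 lower at that level. Of 22 T and NK cell markers 1 was higher, the co-receptor Cd28 by 0.40 (SE 0.16), of 17 Schwann cell and myelin markers 1, the myelin glycoprotein Mag by 0.20 (SE 0.07), and none of 10 MHC class II genes or 4 erythroid markers reached that level. Prc1 and Mki67, both of dividing cells, were higher by 0.51 (SE 0.08) and 0.41 (SE 0.12), while the 30 genes of the proliferation list had a median of 0.02 and Pcna was lower at -0.19 (SE 0.08). Jchain and Prc1 are dim probe sets, which the setting with dim genes left out removed. The means of Prc1 were 4.80 at 24 months and 4.29 at 6 months.

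Among secreted factors, Ostn stood out in size. Ostn, which encodes musclin, a peptide that muscle releases with activity, measured 8.06, 7.55 and 9.05 at 24 months and 7.07, 6.94 and 6.59 at 6 months, a difference of 1.35 (SE 0.33). The arrays of 24 months spread widely, and all lay above those of 6 months. Gdf11, a TGF-beta family member close to myostatin, measured 9.05, 9.25 and 8.28 at 24 months and 8.26, 8.16 and 8.01 at 6 months, a difference of 0.72 (SE 0.22). One 24-month array lay just above the 6-month arrays and the other 2 well above them. Lep, leptin of fat cells, measured 7.49, 6.20 and 7.16 at 24 months and 6.58, 6.06 and 5.81 at 6 months, a difference of 0.80 (SE 0.32), and of 0.53 without the 24-month array of replicate 1. The 18 adipocyte markers had a median of 0.02, and of -0.21 without the 6-month array of replicate 3, where 12 of 18 had a lower mean. Adipoq, adiponectin, differed by 0.21 (SE 0.52), and by -0.46 without that array.

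A set of 4 probe sets on genes of muscle microRNAs, chosen after their values were seen, had higher means at 24 months. Mir1a-1 measured 5.30, 5.26 and 4.80 at 24 months and 4.44, 3.86 and 3.71 at 6 months, a difference of 1.12 (SE 0.20). Mir133a-2, which lies beside it on chromosome 2 in RefSeq, measured 6.50, 6.32 and 6.02 at 24 months against 5.74, 5.06 and 4.67 at 6 months, a difference of 1.12 (SE 0.24). Mir133a-1 and Mir1a-2 were higher by 0.84 (SE 0.15) and 0.68 (SE 0.15). In none of the 4 did the ages overlap, which choosing them by their values favours. Being related or neighbouring genes, they do not count as 4 separate observations. Of the other muscle microRNA genes, Mir206, of slow and regenerating fibres, differed by -0.08 (SE 0.07) at a level near 2.6, and Mir499, of slow fibres, by 0.00 (SE 0.11). These probe sets are dim, and they read the hairpin gene or its precursor and not the mature microRNA. The 5′ arms from RefSeq are shown for Mir1a-1 and Mir206 to tell the related genes apart, with bases 2 to 8 in capitals. These are the minor products: the 3′ arms, through which miR-1 and miR-206 are known to act, share one seed.
mmu-miR-1a-1-5p, chr2:180389057-180389079, GRCm38.p6, plus strand: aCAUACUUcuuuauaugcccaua
mmu-miR-206-5p, chr1:20679017-20679039, GRCm38.p6, plus strand: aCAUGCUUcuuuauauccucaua
Counted from 1 at the 5′ end, with the base of mmu-miR-1a-1-5p first, the 5′ arms differ by A5G within bases 2 to 8 and by G17C and C19U outside them, and 20 of 23 bases are identical.

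Gastrocnemius, the other limb muscle of the series, gave its own age differences for the same genes, shown side by side without a test because its table was normalized separately on another array type. Of the 12 named genes with a higher mean in quadriceps, 11 had a gastrocnemius difference other than 0, and all 11 were higher there too. Of the 12 with a lower mean, 11 were measured in gastrocnemius and 10 were lower there. Over all genes measured in both, 52.6% had the same direction, with 57.7% for genes higher and 46.8% for genes lower in quadriceps. Among genes at an unadjusted p under 0.05 in quadriceps, 62.5% of the higher and 56.9% of the lower ones had the same direction. Kcnab1 differed by 1.25 (SE 0.22) in gastrocnemius and by 0.91 in quadriceps. Amy1 differed by 0.75 (SE 0.08) there and 0.69 in quadriceps, Pim1 by -0.68 and -0.83, and Smox by -0.56 and -0.63. Mettl21c differed by -0.43 (SE 0.15) in gastrocnemius and by -0.94 in quadriceps, and Mettl21e differed by -0.44 and -0.45. The exception among the lower genes was Slc25a36, at 0.03 in gastrocnemius and -0.52 in quadriceps. Sh3rf2, Dqx1, Prc1 and Synpo2l differed by at most 0.08 in gastrocnemius. Igf1 had the opposite sign in gastrocnemius, at 0.13 (SE 0.06) against -0.57 in quadriceps, and Gdf11 differed by -0.01 there.

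**Figure D5:**
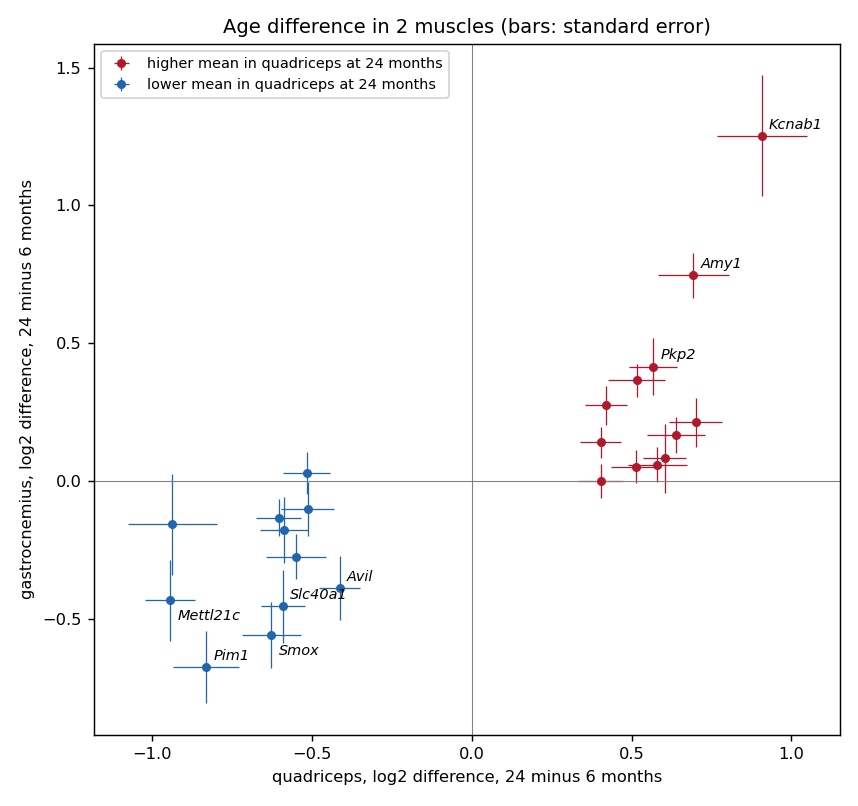
Log2 difference, 24 minus 6 months, of the named genes in quadriceps (horizontal axis, 3 arrays per age) and in gastrocnemius (vertical axis, 4 arrays per age, another array type), for genes with a higher (red) or lower (blue) mean in quadriceps at 24 months; bars are standard errors. Kcnab1 and Amy1 lie farthest up, at 1.25 and 0.75 in gastrocnemius, and Pim1 and Smox farthest down, at -0.68 and -0.56.

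Quadriceps and liver share a table, so their age differences were compared in one model. The difference between them passed the adjusted threshold in 3 of 19928 genes (0.0151%). For Mettl21c, liver lay near the bottom of the scale, at 4.51 at 24 months and 4.44 at 6 months. A fall could hardly show there, so its term largely repeats the quadriceps difference. The quadriceps difference minus the liver difference was -1.02 for Mettl21c, with 0.07 in liver, and its limma adjusted p was 0.0201 with 3 arrays per group. That call was lost without the 24-month quadriceps array of replicate 1 (limma adjusted p of 0.0598) or 2 (0.106), without the 6-month one of replicate 2 (0.0808) and without both arrays that stand apart (0.0594). For Sel1l3 and Il1a the term came mostly from liver. Il1a, the cytokine interleukin 1 alpha, differed by 0.28 (SE 0.07) in quadriceps and by -0.87 (SE 0.13) in liver, and Sel1l3, a membrane protein, by 0.16 (SE 0.06) in quadriceps and by -0.92 (SE 0.12) in liver. Il1a in quadriceps lay at 4.09, 4.04 and 4.04 at 24 months and at 3.72, 3.85 and 3.75 at 6 months, near the floor of the scale. The limma adjusted p of both was 0.0261, with terms of 1.16 for Il1a and 1.08 for Sel1l3. Both calls were lost under quantile normalization, at limma adjusted p of 0.0569 for Il1a and 0.0584 for Sel1l3, and with each quadriceps array left out except the 6-month one of replicate 1. The next genes by p, with an adjusted p of 0.0555 each in limma, were Noct and 1700001O22Rik, at -1.02 and -1.13 between the tissues. Noct, a clock-linked phosphatase, differed by -0.05 in quadriceps and 0.97 in liver, whereas 1700001O22Rik differed mostly in quadriceps, at 8.41, 8.22 and 8.07 in 24-month arrays and 9.09, 8.94 and 9.14 in 6-month arrays.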

How the data were processed

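Quadriceps RNA of 3 arrays at 24 months and 3 at 6 months was compared on the table that also holds liver. The deposited log2 values were made by the authors with RMA, per the submitters' processing notes (version not given in the sources used here), and carry 2 decimals, so intensities of single probes and background levels were not used here. RMA gives 1 background-corrected value per probe set, in which differences of dim genes come out small; the number of arrays sets the precision. The platform annotation gave 21797 of 28944 probe sets a single symbol, 1613 more than one and 5534 no symbol; each of 19928 genes was taken by its probe set of highest mean.

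Age differences were fitted with limma 3.58.1 in R 4.3.3 (lmFit, eBayes, two-sided, Benjamini-Hochberg over all genes, threshold 0.05), after the code was tested on simulated data. The same tool fitted the quadriceps minus liver term on 12 arrays of that table and gastrocnemius on its own table. Named genes were those past the threshold, the 12 of smallest p in each direction (unnamed gene models skipped), list members at an unadjusted p under 0.05 or else of smallest p, fixed anchor genes and the 5 of smallest p for the tissue term. Further genes, such as Ckm and Mir1a-1, were picked with their values in view. The members and the 37 lists were chosen with earlier results of these data known. The alternatives were other scaling, filters, probe set choices, priors, weights, blocks and left-out arrays. Promoters and microRNAs came from RefSeq (GRCm38.p6). The anchor Cdkn1a has no probe set of 1 symbol and was not analysed here.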

Additional observations from a re-analysis of the deposited data

Results flagged for a closer look

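The age difference in quadriceps differed from that in liver, by a limma term for the difference itself, in 3 genes with 3 arrays per group. For Mettl21c, the muscle lysine methyltransferase, the term was -1.02, with a difference of -0.94 in quadriceps and 0.07 in liver. For Sel1l3 it was 1.08, with 0.16 in quadriceps and -0.92 in liver. For Il1a, interleukin 1 alpha, it was 1.16, with 0.28 in quadriceps and -0.87 in liver. Liver lay near the bottom of the scale for Mettl21c, at 4.51 at 24 months and 4.44 at 6 months, so a fall could hardly show there. With single quadriceps arrays left out, limma's adjusted p ranged between 0.039 and 0.106 for Mettl21c and between 0.0462 and 0.106 for Sel1l3 and Il1a. All 3 calls were lost without the 24-month array of replicate 1 (0.0598) or of replicate 2 (0.106), without the 6-month array of replicate 2, without both arrays that stand apart and with a minimum of 1.2-fold (0.226). Under quantile normalization Sel1l3 (0.0584) and Il1a (0.0569) were not called, nor were they without the liver 6-month array of replicate 3 (0.0784 and 0.0634), and Sel1l3 was not called without the liver 24-month array of replicate 2 (0.0561).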

How the results depend on the processing

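Mettl21c kept its direction under every alternative, but the counts of calls moved. Against 1 gene called in quadriceps, limma called 9 with dim genes left out, 18 with a trended and robust prior, 15 in a joint fit with liver and 8 with array weights, Mettl21c among them each time. It called 0 with a minimum of 1.2-fold, 0 with the replicate block, 0 with each single array left out and 0 without both arrays that stand apart (an alternative chosen after seeing the data), where 29 genes were higher and 33 lower at an unadjusted p under 0.05 with the 1.2-fold minimum, 767 and 657 with the block, 540 to 872 and 489 to 780 with 1 array left out, and 1104 and 960 without both. Mettl21c differed by -0.94 under the block and the 1.2-fold minimum, by -0.96 without both arrays and by -0.98 to -0.88 with 1 array left out, and was not called in any of these. Against 3 genes for quadriceps minus liver (2 higher and 1 lower), there were 3 under quantile normalization (0 higher and 3 lower), 196 with arrays centred on their median, 203 with dim genes left out, 159 with the trended prior, 2523 with array weights, 15 with the replicate block, 0 with the 1.2-fold minimum, 0 to 10 with 1 quadriceps array left out and 1 without both arrays. Leaving out a liver array, chosen after seeing the data, gave 2 to 1462 calls: 7 without 24-month replicate 1, 48 without 6-month replicate 1 and 1462 without 24-month replicate 3. The causes were not tested. The labels do not say whether the replicate numbers pair the arrays. Same-numbered arrays correlated at 0.16, -0.04 and -0.01 in their deviations from the group means, and unlike-numbered arrays at -0.19 to 0.20. These values cannot settle pairing, because the deviations of the 3 arrays of an age sum to 0. The block is shown for completeness. Over 197 named genes and 17 alternatives, 3252 of 3310 single-gene values stayed on their side of the threshold and, where not called, within their spread, 46 newly passed it (23 genes), 9 no longer did (Mettl21c) and 3 moved by more than their spread without both arrays, Cyp2e1 to -1.64, Myh3 to 0.14 and Hspd1 to 0.04. Dim probe sets, such as the microRNA genes, limit what these arrays resolve.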
